A study of Mus musculus with 9 samples.

Results

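Sugars and their breakdown products react with proteins without the help of an enzyme, and the genes described here make, clear, repair or sense the compounds that take part. The list held 10 symbols covering aldose reductase, the sorbitol and fructose enzymes, the glyoxalases, the deglycating kinases and the receptors of glycation products. Of these, 9 were found among the 18272 genes of the expression table by their symbol, and the tenth, *Akr1b1*, is another name for mouse aldose reductase, which the table lists as *Akr1b3*. The rule used symbols and no measured value. RNA-seq, a readout of transcript abundance across the genome, was made from 1 tibia of each of 9 female C57BL/6J mice in 3 groups of 3. Mice were 10 to 11 weeks old at purchase, acclimated for 1 week and were injected with vehicle or once with streptozotocin (STZ). This compound is toxic to the beta cells of the pancreas, which make insulin. The groups were formed 2 weeks later: NGT mice, with normal glucose tolerance, had received vehicle and were given saline, T1D mice had received STZ and were given saline, and Lira mice had received STZ and were given liraglutide, a long-acting GLP-1 receptor agonist, in a dose of 0.6 mg/kg/day. Treatment lasted 8 weeks in the study's methods, whereas the label of Lira mouse 3 gives 9 weeks. T1D and Lira mice share the toxin, and no group received liraglutide without it. Effects of STZ itself and of high glucose therefore cannot be told apart, and the effect of liraglutide in mice with normal glucose was not measured. The paper reports significantly lower blood glucose in its liraglutide group than in its saline-treated diabetic group, mostly late in treatment. T1D and Lira mice thus differed in glucose as well as in drug, and comparisons that pool them join unlike glucose levels.

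In the polyol pathway, aldose reductase turns glucose into sorbitol, sorbitol dehydrogenase turns sorbitol into fructose, and ketohexokinase adds a phosphate to fructose. Methylglyoxal, a reactive by-product of glycolysis, is removed by glyoxalase 1 and glyoxalase 2 in turn, and the fructosamine kinases take early sugar adducts off proteins. Advanced glycation end products that remain are bound by cell surface receptors, and in diabetic bone they are known to accumulate on collagen. Whether the transcripts of this chain differ between the tibias of diabetic and non-diabetic mice, and between treated and untreated diabetic mice, is the question the comparisons address.

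Levels are given as FPKM, fragments scaled for transcript length and library total, when genes are set against each other, and as CPM, counts per 1e+06 scaled by edgeR's TMM factors, when libraries are. The libraries held 13086343 to 16528372 counts each. A gene with a count of 0 could thus have had up to 3 counts, or 0.163 to 0.238 CPM, and this covers counting error only. All 9 genes were among the 13960 tested, those with at least 10 counts in at least 3 libraries. Marker sums for the cell types of the tissue differed widely between libraries, and the ranges of the 3 groups overlapped for every list. The bones had been cleaned of muscle before freezing. Even so, 10 of 10 skeletal muscle markers were present in the libraries, with a summed level between 82840 CPM (T1D mouse 1) and 231600 CPM (NGT mouse 3). Markers of bone were present too, with 11 of 11 osteoblast and osteocyte markers between 111.9 CPM (NGT mouse 2) and 3714 CPM (T1D mouse 1), and 9 of 10 erythroid markers summed to between 329.2 CPM (NGT mouse 2) and 21140 CPM (Lira mouse 3). T1D mouse 1 and Lira mouse 3 stood apart in this respect, and so did NGT mouse 2, which had the lowest sum of all libraries for 7 of the 9 lists of markers. In such bulk tissue, fewer cells of a type and less RNA per cell cannot be told apart.

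The transcripts of this chain spanned a wide range of levels in the tibia libraries, which also held muscle RNA. *Akr1b3* had the highest mean over the 9 libraries, 112 FPKM, which was place 553 among the 18272 genes, and *Ager*, the receptor for advanced glycation end products, had the lowest, 1.09 FPKM at place 11517. Between them, *Glo1* stood at 61.4 FPKM, *Sord* at 33.1 FPKM, *Lgals3* at 30.9 FPKM, *Hagh* at 30.5 FPKM, *Fn3k* at 12.3 FPKM, *Khk* at 7.98 FPKM and *Fn3krp* at 3.29 FPKM. The steps from *Akr1b3* to *Glo1*, from *Glo1* to *Sord* and from *Hagh* to *Fn3k* were larger than the spread, since the ranges of these neighbours over 9 libraries did not overlap. The place of *Lgals3* was not settled by these data: *Sord* exceeded it in 7 of 9 libraries, and it exceeded *Hagh* in 1 of 9, its mean being raised by 1 library. *Fn3k* exceeded *Khk* in 8 of 9 libraries, and *Khk* exceeded *Fn3krp* and *Fn3krp* exceeded *Ager* within each of the 9 libraries, although the ranges of these pairs overlapped.

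**Figure D1:**
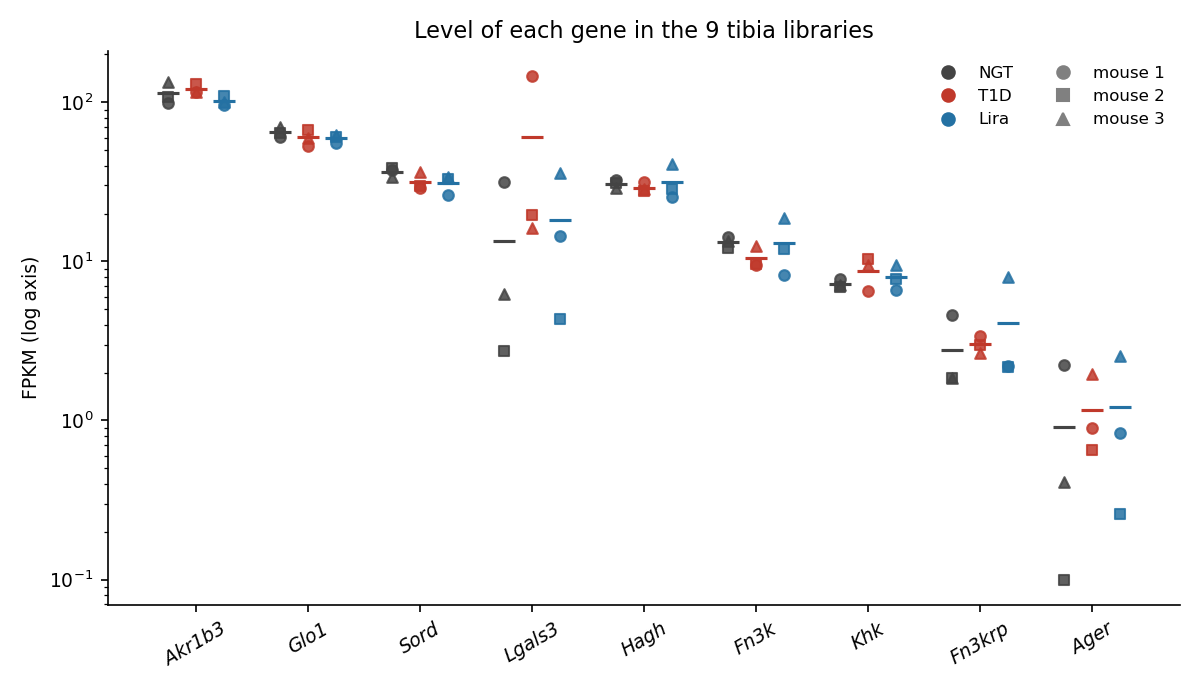
Level of each of the 9 genes in the 9 tibia libraries, in FPKM on a log axis, ordered by mean. Points are single mice (colour for group, marker shape for mouse number) and short bars are group means (n = 3). *Glo1*, *Akr1b3*, *Sord* and *Hagh* lie close together within each gene, *Fn3krp* ranges from 1.84 to 7.93 FPKM, *Lgals3* ranges from 2.73 to 146.53 FPKM and *Ager* from 0.1 to 2.53 FPKM.

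The enzymes and the receptors also differed in how much they varied from mouse to mouse. Over the 9 libraries, the coefficient of variation of CPM was 12.6% for *Hagh*, 18.5% for *Glo1*, 19.2% for *Sord*, 19.97% for *Akr1b3*, 20.5% for *Khk* and 25.1% for *Fn3k*, against a median of 24.8% for all genes tested. It was 50.2% for *Fn3krp*, 78.7% for *Ager* and 130.0% for *Lgals3*, and the last was larger than in 97.5% of the genes tested. The highest library exceeded the lowest 38.7-fold for *Lgals3*, 20.4-fold for *Ager* and 3.46-fold for *Fn3krp*, and between 1.47-fold and 2.33-fold for the other 6 genes, compared with a median of 2.12-fold for all genes tested. *Ager* rested on few reads, from 2 counts in NGT mouse 2 to 55 counts in Lira mouse 3, so that its low libraries lie near the counting limit.

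To show the regulatory sequence at the ends of this range, the 250 bases before the annotated start are printed for *Lgals3*, the most variable gene, and for *Glo1*, the one with the smallest coefficient of variation on the FPKM scale (8.86%). They are from RefSeq on GRCm38.p6, 5′ to 3′ on the strand of the gene, with capitals marking the GC box, a motif bound by factors of the Sp family (GGGCGG on either strand). The *Lgals3* window is chr14:47373610-47373859 on the + strand and the *Glo1* window is chr17:30612660-30612909 on the - strand.
Lgals3: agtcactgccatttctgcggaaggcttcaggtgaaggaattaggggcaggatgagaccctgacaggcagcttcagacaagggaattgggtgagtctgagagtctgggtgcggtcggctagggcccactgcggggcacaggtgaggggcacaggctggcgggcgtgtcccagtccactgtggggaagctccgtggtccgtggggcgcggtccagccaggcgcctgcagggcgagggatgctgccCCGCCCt
Glo1: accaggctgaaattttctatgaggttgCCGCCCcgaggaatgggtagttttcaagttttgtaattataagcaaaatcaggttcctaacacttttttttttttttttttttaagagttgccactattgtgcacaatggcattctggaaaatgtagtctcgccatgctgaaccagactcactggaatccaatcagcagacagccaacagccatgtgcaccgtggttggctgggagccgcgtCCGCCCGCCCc
The *Lgals3* window holds 1 GC box, which ends 2 bases before the start, and the *Glo1* window holds 3, of which a pair overlapping by shared letters ends 6 and 2 bases before the start and the other ends 218 bases before it. A GC box was found in 32.7% of the 32851 promoter windows of this length. The *Lgals3* window has 13 CpG dinucleotides and the *Glo1* window has 8, against a median of 6 over all windows. Windows were found for 7 of the 9 genes, not for *Akr1b3* and *Fn3k*, and each gene but *Ager* had a GC box in a window. Neither the AP-1 site (TGANTCA, in 6.75% of all windows) nor the core of the antioxidant response element (TGACNNNGC, in 10.2%) was found in them on either strand. These are matches of letters in short windows and not measured binding.

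Aldose reductase, *Akr1b3* (gene 11677), was the most abundant transcript of the chain and did not separate the groups in CPM. In NGT mice 1, 2 and 3 it stood at 113.9, 169.4 and 210.9 CPM, in T1D mice at 129.9, 181.6 and 177.7 CPM, and in Lira mice at 146.4, 168.5 and 124.5 CPM. Both T1D and Lira mice lay within the range of the NGT mice. Group means on the length-scaled measure were 114 ± 18.1 FPKM in NGT, 121 ± 8.04 FPKM in T1D and 102 ± 6.87 FPKM in Lira mice (SD, n = 3 each). On this scale all T1D mice (115.76 to 129.87 FPKM) lay above all Lira mice (96.6 to 109.9 FPKM), and both overlapped the NGT mice (98.62 to 133.79 FPKM). The share of all genes without overlap on the FPKM scale was not counted. The fitted log2 fold change was -0.01 for T1D against NGT (SE 0.25, 95% confidence interval -0.59 to 0.56, adjusted p = 0.997, edgeR's quasi-likelihood F test, Benjamini-Hochberg adjusted). This interval leaves room for fold changes between 0.664 and 1.48. For Lira against T1D it was -0.15 (SE 0.25, interval -0.73 to 0.42).

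Sorbitol dehydrogenase, *Sord* (gene 20322), had the lower mean in both diabetic groups, within the spread between mice. Its level was 70.31, 97.99 and 86.69 CPM in NGT mice 1 to 3, 52.62, 68.16 and 90.7 CPM in T1D mice and 64.16, 82.01 and 68.71 CPM in Lira mice. The lowest library was T1D mouse 1, and T1D mouse 3 lay above NGT mice 1 and 3, so the groups overlapped. Relative to NGT, the fitted log2 fold change was -0.27 in T1D mice (SE 0.23, interval -0.78 to 0.24) and -0.25 in Lira mice (SE 0.23, interval -0.76 to 0.27). These 2 comparisons share the NGT mice. With all 6 STZ-injected mice set against the 3 NGT mice it was -0.26 (SE 0.19, interval -0.70 to 0.18, unadjusted p = 0.215 in edgeR's quasi-likelihood test), and 0.02 separated Lira from T1D mice (interval -0.49 to 0.54).

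Ketohexokinase, *Khk* (gene 16548), the enzyme that commits fructose to breakdown, was the least abundant of the polyol genes. NGT mice 1 to 3 had 9.519, 11.91 and 12.67 CPM, T1D mice 7.828, 15.19 and 15.21 CPM and Lira mice 10.28, 12.15 and 12.05 CPM. T1D mice held both the lowest and the 2 highest libraries. Accordingly, the fitted log2 fold change was 0.16 for T1D against NGT (SE 0.27, interval -0.46 to 0.79) and -0.15 for Lira against T1D (SE 0.27, interval -0.77 to 0.48).

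Ratios of enzymes that follow each other in the pathway were taken within a library, where scaling cancels out. On the FPKM scale *Akr1b3* exceeded *Sord* 2.64-, 2.81- and 3.96-fold in NGT mice, 4.02-, 4.34- and 3.19-fold in T1D mice and 3.71-, 3.34- and 2.95-fold in Lira mice. The log2 ratio, computed on CPM, was 0.92 ± 0.31 in NGT, 1.22 ± 0.23 in T1D and 1.02 ± 0.17 in Lira mice (SD, n = 3 each), and differed by 0.30 between T1D and NGT (p = 0.2, two-sided exact permutation test) and by -0.20 between Lira and T1D (p = 0.3, exact permutation test). With 3 mice against 3, no p under 0.1 is possible. The ratio of *Khk* to *Sord* gave a different picture. It was 0.206, 0.178 and 0.210 in NGT mice, 0.224, 0.344 and 0.262 in T1D mice and 0.253, 0.235 and 0.280 in Lira mice, so that all 6 STZ-injected mice lay above all 3 NGT mice, T1D mouse 1 by the smallest margin. The log2 ratio on CPM was higher by 0.33 (1.26-fold) in the STZ-injected mice (-2.52 ± 0.21, n = 6) than in NGT mice (-2.85 ± 0.13, n = 3; p = 0.0238, two-sided exact permutation test, the smallest p of this design). This ratio was looked at after the values of both genes were known. Over the 12 ratio tests made, 3 ratios in 4 comparisons, its Benjamini-Hochberg adjusted value was 0.286 in the exact permutation test, so that it did not pass the correction. Beside it, 1.35% of the other 13959 genes tested had a ratio to *Sord* that was higher in the STZ-injected mice with no overlap. Neither *Khk* nor *Sord* separated the groups on its own.

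**Figure D2:**
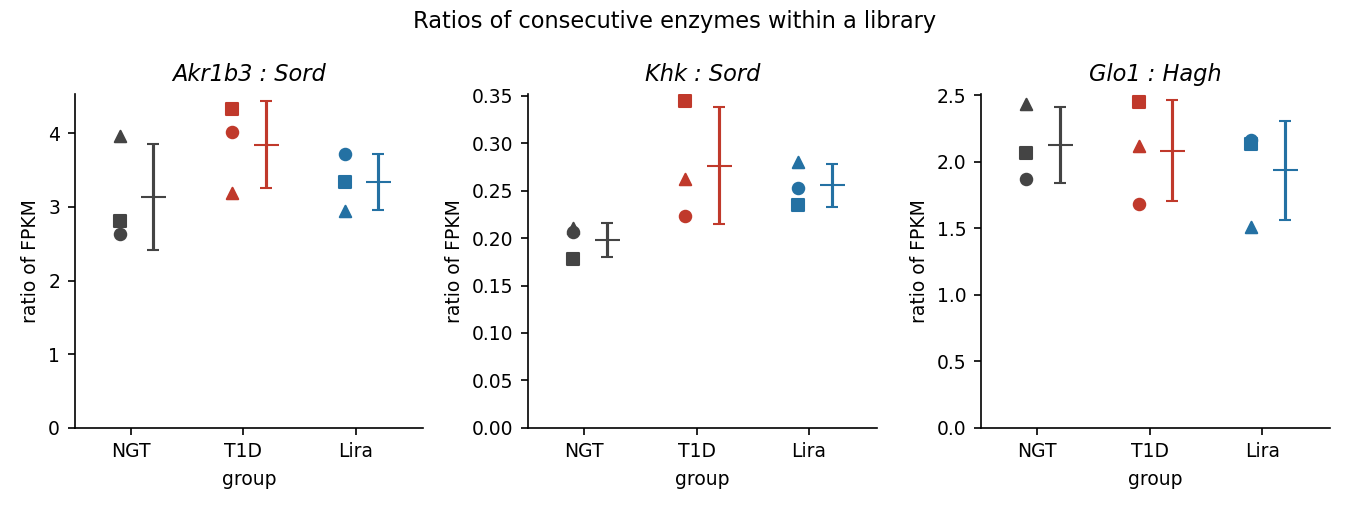
Ratio of FPKM between consecutive enzymes in each mouse (points, marker shape for mouse number) with the group mean and SD beside them (n = 3 per group), on linear axes from 0. The 3 NGT mice lie at or below 0.210 for *Khk* to *Sord* and the 6 STZ-injected mice at or above 0.224, whereas the groups overlap for the other 2 ratios.

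The other genes that handle fructose and sorbitol were counted from a list of 14, of which 12 were tested. At an unadjusted p under 0.05, 1 was higher in T1D than in NGT mice, where 2.36% of all genes tested were, and 1 was lower in Lira than in T1D mice, where 1.78% were, and 0 passed an adjusted p of 0.05 in edgeR's quasi-likelihood test. The median log2 fold change of the list was 0.12 and 0.05 in these comparisons, against 0.02 and 0.04 over all genes tested. Neither median kept its sign when mice were left out. For T1D against NGT it was -0.11 without T1D mouse 1, -0.06 without NGT mouse 2 and 0.33, with 3 genes higher and 1 lower, without T1D mouse 2. In that last fit 5.19% of all genes tested had an unadjusted p under 0.05, in either direction. For Lira against T1D the median ranged from -0.20 without Lira mouse 3 to 0.28 without T1D mouse 3. The gene that was higher in T1D mice is *Akr1a1*, an aldehyde reductase that also reduces sugars, at 136 ± 8.34 CPM in NGT, 176 ± 27.9 CPM in T1D and 147 ± 11.6 CPM in Lira mice (SD, n = 3 each). T1D mice, led by T1D mouse 1 with 208.5 CPM, did not overlap NGT mice on this scale, but did on the FPKM scale. Its log2 fold change was 0.38 (SE 0.16, unadjusted p = 0.0465, adjusted p = 0.977, edgeR's quasi-likelihood F test, Benjamini-Hochberg adjusted), and 0.24 without T1D mouse 1 (unadjusted p = 0.149, edgeR). The unadjusted call was also lost with the replicate block (unadjusted p = 0.0791, edgeR) and with library size in place of TMM (unadjusted p = 0.0773, edgeR), and was kept in 5 of 20 alternatives. *Akr1b8*, an aldose reductase-like gene next to *Akr1b3* on the chromosome, was the one lower in Lira mice, and is named here after its values were seen. It had 11.6 CPM in T1D mouse 1 and at most 3.36 CPM in the other 8 libraries, with a log2 fold change of -1.69 for Lira against T1D (SE 0.65) and -0.51 without T1D mouse 1. Its unadjusted p under 0.05 was found in 11 of 20 alternatives and was lost with the replicate block (unadjusted p = 0.0535, edgeR). The most abundant gene of the list was *Aldoa*, a glycolytic aldolase of muscle, at 11790 ± 2247 FPKM in NGT, 10890 ± 1929 FPKM in T1D and 10940 ± 1855 FPKM in Lira mice. *Hk2*, the insulin-responsive hexokinase of muscle, had 48.2 ± 8.23 FPKM in NGT and 33.2 ± 10.4 FPKM in T1D mice, and *Akr1b10*, another aldose reductase relative, 37.2 ± 1.59 and 29.7 ± 1.84 FPKM, and neither passed the unadjusted threshold. Of 7 osmotic response genes, which cells use when solutes such as sorbitol are out of balance, 6 were tested and 0 reached an unadjusted p under 0.05 in edgeR's test in any comparison, where 0.781% to 3.95% of all genes tested did. Without T1D mouse 1, 1 was lower in T1D against NGT and in all STZ-injected mice against NGT, where 3% and 2.1% of all genes reached it. Without Lira mouse 2, 1 was lower in Lira against T1D, where 3.12% did.

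Glyoxalase 1, *Glo1* (gene 109801), which turns the methylglyoxal adduct of glutathione into a harmless thioester, kept a narrow range on the FPKM scale. It stood at 60.33, 63.95 and 70.28 FPKM in NGT mice 1 to 3, at 52.92, 67.45 and 60 FPKM in T1D mice and at 55.15, 60.63 and 62.09 FPKM in Lira mice. The groups overlapped, with means of 64.9 ± 5.04, 60.1 ± 7.27 and 59.3 ± 3.66 FPKM (SD, n = 3 each). In CPM the libraries were spread further, from 76.54 in T1D mouse 1 to 141.5 in NGT mouse 3. The fitted log2 fold change was -0.19 for T1D against NGT (SE 0.23, interval -0.72 to 0.34) and 0.04 for Lira against T1D (SE 0.23, interval -0.49 to 0.57).

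Glyoxalase 2, *Hagh* (gene 14651), which completes the reaction and gives the glutathione back, varied least of the 9 genes in CPM. NGT mice 1 to 3 had 30.84, 39.52 and 37.52 CPM, T1D mice 28.43, 31.62 and 36.21 CPM and Lira mice 32.4, 36.37 and 41.85 CPM. Every T1D mouse lay below the NGT mouse of the same number, at 0.922, 0.800 and 0.965 of its level, but the groups overlapped. Between T1D and NGT mice its log2 fold change was -0.16 (SE 0.17, interval -0.55 to 0.22) and between Lira and T1D mice 0.20 (SE 0.17, interval -0.18 to 0.58), which gives *Hagh* the narrowest intervals of the set. Its counts were not whole numbers in 9 of 9 libraries, and in the RefSeq annotation it overlaps *Meiob* and *Fahd1*, so that the share of reads assigned to it depends on the authors' counting. The ratio of *Glo1* to *Hagh* averaged 2.12 in NGT, 2.08 in T1D and 1.93 in Lira mice on the FPKM scale, with SDs of 0.288, 0.382 and 0.369 (n = 3 each).

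The wider set of 16 genes for the disposal of reactive carbonyls was tested in full, and 0 reached an unadjusted p under 0.05 in edgeR's test for any comparison, where 3.95% (T1D against NGT), 3.33% (Lira against T1D), 0.781% (Lira against NGT) and 1.8% (all STZ-injected mice against NGT) of all genes tested did. With so few genes at these shares, the count says little about the list. Its median log2 fold change was -0.05 for T1D against NGT and 0.02 for Lira against T1D. The median for T1D against NGT ranged from -0.15 without NGT mouse 1 to 0.04 without NGT mouse 3. The number lower at that threshold was 1 with the replicate block or without NGT mouse 1. It was 2 with the block and only the 2 groups compared or without Lira mouse 2 or 3. Of all genes tested, 5.39%, 7.32%, 14.2%, 4.39% and 4.35% reached the threshold in these fits in turn, in either direction. In the other comparisons the threshold was reached by up to 2 genes when a mouse was left out, where 2.36% to 5.35% of all genes tested did. *Tpi1*, the glycolytic enzyme whose substrates give rise to methylglyoxal, had 904 ± 146 FPKM in NGT, 969 ± 281 FPKM in T1D and 907 ± 95.2 FPKM in Lira mice. *Park7*, which encodes DJ-1, had 292 ± 61.0, 277 ± 13.6 and 263 ± 11.5 FPKM in the same order. The aldehyde dehydrogenases *Aldh1a1* and *Aldh2* had means between 54.4 and 74.9 FPKM in the 3 groups.

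Fructosamine-3-kinase, *Fn3k* (gene 63828), phosphorylates the sugar of early glycation adducts so that it falls off the protein. NGT mice 1 to 3 had 12.37, 14.0 and 14.65 CPM, T1D mice 8.154, 10.61 and 13.87 CPM and Lira mice 9.421, 13.86 and 19.0 CPM. Each T1D mouse was below the NGT mouse of its number, at 0.659, 0.758 and 0.947 of its level, yet T1D mouse 3 lay within the NGT range. Its log2 fold change was -0.33 for T1D against NGT (SE 0.29, interval -0.99 to 0.33, unadjusted p = 0.288 in edgeR's test) and 0.38 for Lira against T1D (SE 0.29, interval -0.29 to 1.04). The second value was -0.02 in limma-voom with sample weights.

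Its relative *Fn3krp* (gene 238024), which acts on other sugar adducts and is the neighbour of *Fn3k* on the chromosome, was the less abundant of the kinases. NGT mice 1 to 3 had 9.075, 4.95 and 4.829 CPM, T1D mice 7.067, 6.351 and 6.869 CPM, and Lira mice 5.638, 5.296 and 16.7 CPM. Lira mouse 3 was the highest for both kinases. NGT mouse 1 was the next highest for *Fn3krp* on both scales, and for *Fn3k* it was the lowest NGT mouse in CPM (12.37) and the highest in FPKM (14.15). The log2 fold change of *Fn3krp* was 0.10 for T1D against NGT (SE 0.47), 0.45 for Lira against T1D (SE 0.47) and 0.55 for Lira against NGT (SE 0.47). Without Lira mouse 3 the last 2 turned to -0.31 and -0.21. The same library had the highest erythroid marker sum, 21140 CPM, and the highest neutrophil marker sum, 4285 CPM. The part of these cells in the level of *Fn3krp* was not tested. Counts of *Fn3krp* were not whole numbers in 8 libraries, as in the case of *Akr1b3*.

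*Ager* (gene 11596) encodes the receptor for advanced glycation end products, which is best known from the alveolar epithelium of the lung. It was near the lower end of what these libraries can measure, with 41, 2 and 8 counts in NGT mice 1 to 3, 19, 14 and 45 counts in T1D mice and 18, 5 and 55 counts in Lira mice. In CPM these were 2.602, 0.1547 and 0.6333 in NGT, 1.033, 0.9167 and 3.001 in T1D and 1.285, 0.3894 and 3.157 in Lira mice. Each group thus held 1 library well above the other 2, and the value of NGT mouse 2 was under the 0.232 CPM that 3 counts stand for in that library. The log2 fold change was 0.52 for T1D against NGT (SE 1.01, interval -1.78 to 2.83) and -0.02 for Lira against T1D (SE 1.00, interval -2.31 to 2.27), intervals that include changes of more than 2-fold either way. Single libraries set these values: for T1D against NGT it was 2.04, 0.02 and 0.24 when NGT mice 1, 2 and 3 were left out in turn, -0.23 without T1D mouse 3, and 1.72 in limma-voom with sample weights. For Lira against T1D it was -0.96 without Lira mouse 3 and 0.73 without T1D mouse 3. No alternative gave *Ager* an unadjusted p under 0.05 in edgeR, DESeq2 or limma. The highest libraries, Lira mouse 3, T1D mouse 3 and NGT mouse 1, were also the 3 highest for erythroid and for neutrophil markers, whose sums were 4955 to 21140 CPM and 1225 to 4285 CPM in them against 329.2 to 3029 CPM and 13.15 to 1057 CPM in the other 6. None of the 10 neutrophil markers was at 0 in all libraries, and their part in the level of *Ager* was not tested. A sum over 4 lung epithelial markers was between 1.16 and 5.51 CPM. Nearly all of it was *Hopx* (1.083 to 5.511 CPM), while *Sftpc*, *Aqp5* and *Cldn18* were at most 0.1087 CPM in any library.

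*Lgals3* (gene 16854) encodes galectin-3, a lectin of macrophages and osteoclasts that binds and takes up advanced glycation end products. It had the largest fitted difference of the 9 genes between T1D and NGT mice, and it did not pass the test. NGT mice 1 to 3 had 35.92, 4.176 and 9.737 CPM, T1D mice 161.6, 27.11 and 24.81 CPM, and Lira mice 21.63, 6.62 and 43.91 CPM. T1D mouse 1 was far above all other libraries, the remaining T1D mice lay between NGT mouse 1 and NGT mouse 3, and the Lira mice were spread over the range of the NGT mice and a little above it. The means were 16.6 ± 17.0, 71.2 ± 78.3 and 24.1 ± 18.8 CPM (SD, n = 3 each). The log2 fold change was 2.10 for T1D against NGT (SE 1.04, interval -0.28 to 4.47, unadjusted p = 0.0772, adjusted p = 0.977, edgeR's quasi-likelihood F test, Benjamini-Hochberg adjusted), a 4.27-fold higher fitted mean, and -1.56 for Lira against T1D (SE 1.02, interval -3.90 to 0.77, unadjusted p = 0.163, adjusted p = 0.978, same edgeR test). The exact permutation test over mice gave p = 0.3 and p = 0.4.

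*Lgals3* was also compared between mice of the same number, which no label describes as pairs. Taken by number, T1D mice had 4.50, 6.49 and 2.55 times the level of the NGT mice, and *Lgals3* was the 1 gene of the 9 that was higher in 3 of 3 such pairs, where 19.2% of all genes tested were. *Hagh* and *Fn3k* were lower in 3 of 3, where 19.0% were. With the replicate number as a block, the log2 fold change of *Lgals3* was 2.19 (unadjusted p = 0.013, adjusted p = 0.865, edgeR's quasi-likelihood test), where 5.39% of all genes tested had an unadjusted p under 0.05, and with the block and only the 2 groups compared, a fit added after seeing the data, it was 2.06 (unadjusted p = 0.000433, adjusted p = 0.23, edgeR), where 14.2% had, against 4.02% in the fit of these groups without the block. Single libraries moved the value further than the block did. Without NGT mouse 1 it was 3.36 (unadjusted p = 0.0216, edgeR) and without T1D mouse 1 it was 0.64 (unadjusted p = 0.514, edgeR). For Lira against T1D, leaving out T1D mouse 1 left -0.11 (unadjusted p = 0.913, edgeR). Over 20 alternatives the value for T1D against NGT lay between 0.64 and 3.36, with an unadjusted p under 0.05 in 5 and an adjusted p under 0.05 in 0.

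**Figure D3:**
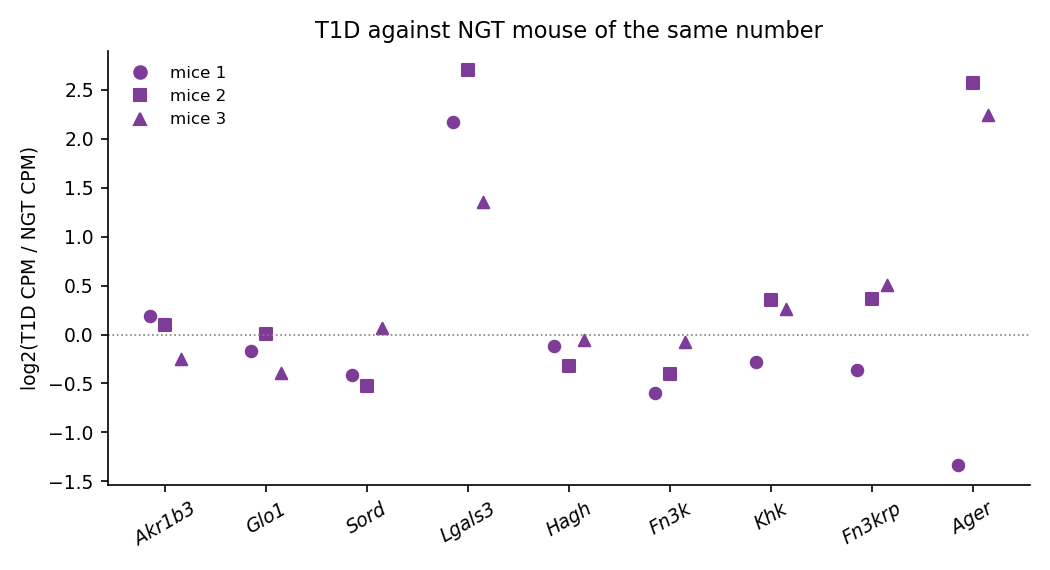
log2 ratio of CPM between the T1D and the NGT mouse of the same number for each gene, ordered by mean FPKM, with 1 point per pair of mice and a dotted line at equal levels. *Lgals3* lies above the line in all 3 pairs and *Hagh* and *Fn3k* below it, while *Ager* spans from 0.397-fold to 5.93-fold.

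The level of *Lgals3* went with that of macrophage markers at the ends of the range across libraries. The 10 macrophage markers, all present, summed to 136.1, 37.05 and 52.09 CPM in NGT mice, 1015, 90.75 and 109.7 CPM in T1D mice and 96.99, 93.07 and 139.2 CPM in Lira mice. The same 3 libraries led both measures in the same order, T1D mouse 1, Lira mouse 3 and NGT mouse 1, and NGT mouse 2 was last in both. Between these ends the orders differed. T1D mouse 2 had a lower marker sum than Lira mouse 2, 90.75 against 93.07 CPM, but more *Lgals3*, 27.11 against 6.62 CPM. All 10 markers had a positive log2 fold change between T1D and NGT mice (median 2.72), and 6 of them, including *Adgre1*, *Cd68* and *C1qa*, reached an unadjusted p under 0.05 (2.36% of all genes tested) and 0 an adjusted one in edgeR's test. This rested on T1D mouse 1: without it the median was 0.46 and 0 of 10 reached an unadjusted p under 0.05, in the same edgeR test. Leaving out NGT mouse 2 or 3 also gave a count of 0, with medians of 2.40 and 2.49, leaving out NGT mouse 1 gave 9, and with the replicate block it was 9 with a median of 2.19. Of all genes tested, 3% reached the threshold in either direction without T1D mouse 1. Without NGT mouse 2, 3 or 1 and with the block the shares were 1.61%, 1.81%, 7.32% and 5.39% in turn. In T1D mouse 1 the osteoclast marker sum, 353 CPM, and the osteoblast and osteocyte sum, 3714 CPM, were the highest of all libraries as well, and the muscle sum was the lowest. The part of macrophage or osteoclast number in the level of *Lgals3* was not tested.

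**Figure D4:**
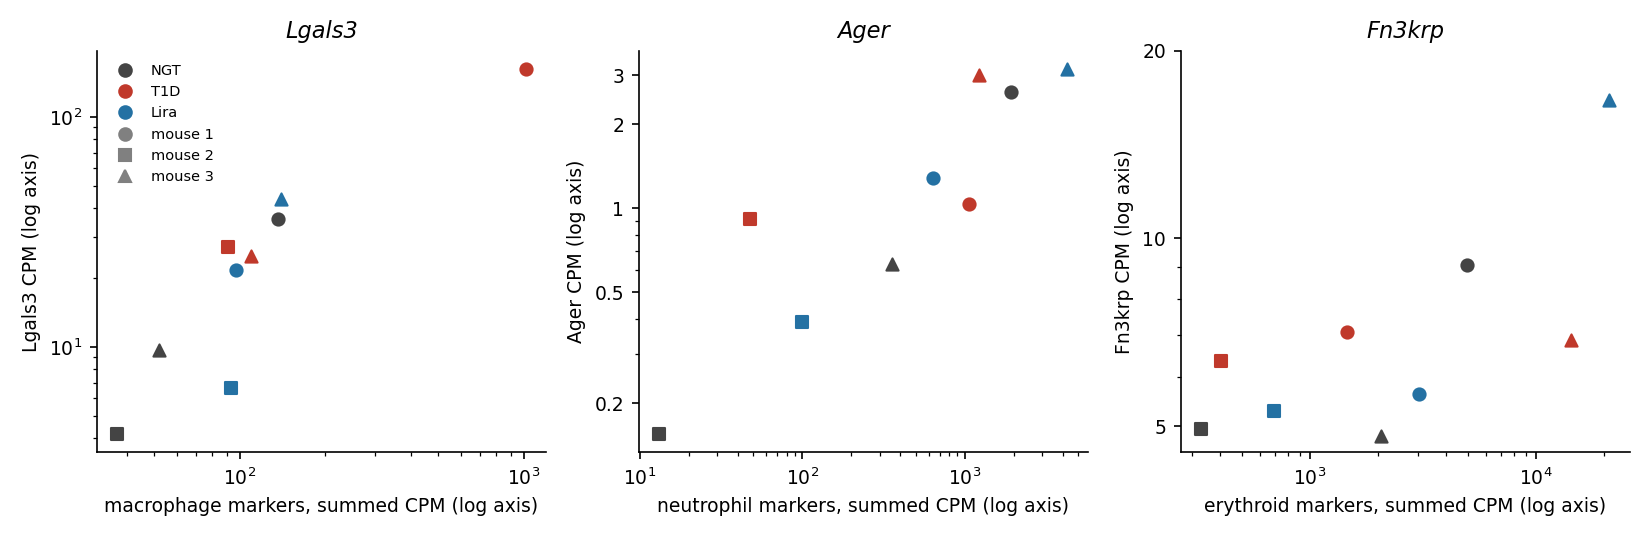
Level of *Lgals3*, *Ager* and *Fn3krp* in CPM against the summed CPM of macrophage, neutrophil and erythroid markers in the same library (log axes, 1 point per mouse, colour for group, marker shape for mouse number). T1D mouse 1 is at the top right for *Lgals3* with 161.6 CPM, and Lira mouse 3 is at the top right for *Ager* and *Fn3krp*.

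Other receptors of glycation products were counted from a list of 8, all tested. In T1D against NGT mice 2 of them, *Ddost* and *Msr1*, were higher at an unadjusted p under 0.05 (2.36% of all genes tested), 0 at an adjusted one in edgeR's test, and the list's median log2 fold change was 0.20. The count was 0 without NGT mouse 2, NGT mouse 3 or T1D mouse 1, 1 without Lira mouse 1 or 2, and 3 with the replicate block (5.39% of all genes tested, either direction) or without NGT mouse 1 or T1D mouse 2, whereas the median ranged from 0.16 to 0.39 over the mice left out and was 0.06, with 7 genes tested, with the block and only the 2 groups compared. *Ddost*, a subunit of the oligosaccharyltransferase of the endoplasmic reticulum that was also described as a receptor of glycation products, had 44.99, 41.3 and 40.45 CPM in NGT mice, 69.2, 45.64 and 56.95 CPM in T1D mice and 50.96, 53.19 and 56.48 CPM in Lira mice. All STZ-injected mice lay above all NGT mice, T1D mouse 2 by the smallest margin, which 0.444% of all genes tested did. On the FPKM scale NGT mouse 1, at 25.84, overlapped them. The log2 fold change of *Ddost* was 0.39 for the STZ-injected mice against NGT (SE 0.15, unadjusted p = 0.0273, adjusted p = 0.999, edgeR's quasi-likelihood F test, Benjamini-Hochberg adjusted). It was at an unadjusted p under 0.05 in 12 of 18 alternatives, and with library size in place of TMM it was 0.43 (unadjusted p = 0.121, edgeR). *Msr1*, a scavenger receptor of macrophages named after its values were seen, had 23.0 CPM in T1D mouse 1 and at most 2.67 CPM elsewhere, and its log2 fold change of 2.76 (SE 1.16) was 0.58 without that mouse. *Cd36*, the most abundant of these receptors and a fatty acid transporter of muscle and fat, had 179 ± 60.0 FPKM in NGT, 173 ± 26.1 FPKM in T1D and 187 ± 36.3 FPKM in Lira mice. *Prkcsh* and *Scarb1* had group means between 9.98 and 15.02 FPKM.

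Of 10 ligands and partners of *Ager*, 1 passed an unadjusted p under 0.05 in edgeR's test in each of the comparisons of T1D with NGT (3.95% of all genes tested) and Lira with T1D (3.33%), and 0 an adjusted one. For T1D against NGT the list's median log2 fold change was 0.23, with 0 genes at that threshold without NGT mouse 3 or T1D mouse 2. With the replicate block 3 of the 10 were higher (median 0.72), with the block and only the 2 groups compared 4 (median 1.02), and without NGT mouse 1 3 (median 1.74), where 5.39%, 14.2% and 7.32% of all genes tested reached the threshold in either direction. For Lira against T1D the median was -0.10, and leaving out T1D mouse 1, Lira mouse 2 or Lira mouse 3 gave 0.11, 0.10 and -1.17 in turn. It is *S100b*, a calcium-binding ligand of the receptor that is abundant in glia, named after its values were seen. It had 2.919, 2.707 and 1.346 CPM in NGT mice, 5.273, 11.92 and 3.601 CPM in T1D mice and 2.427, 1.48 and 2.813 CPM in Lira mice. In CPM all T1D mice were above all others, and T1D mouse 2 was the highest. On the FPKM scale T1D mouse 3, at 1.97, was below NGT mouse 1, at 2.12, so that T1D and NGT mice overlapped, while the Lira mice, at up to 1.9, stayed below the T1D mice. The share of all genes whose groups did not overlap in CPM in this direction was 3.52% for T1D above NGT and 3.4% for Lira below T1D. Both comparisons share the T1D mice. For *S100b* the log2 fold change was 1.57 for T1D against NGT (SE 0.52, unadjusted p = 0.0158, adjusted p = 0.977, edgeR) and -1.62 for Lira against T1D (SE 0.52, unadjusted p = 0.0136, adjusted p = 0.978, edgeR). An unadjusted p under 0.05 was found in 18 of 20 alternatives for each comparison. Without T1D mouse 2 they were 0.93 (unadjusted p = 0.0897, edgeR) and -0.99 (unadjusted p = 0.0738, edgeR), and without NGT mouse 3 the former was 1.30 (unadjusted p = 0.0553, edgeR). With the block and only the 2 groups compared the latter was -1.46 (unadjusted p = 0.0611, edgeR). The neutrophil proteins *S100a8* and *S100a9*, the most abundant ligands, ranged from 0.95 to 1947 FPKM and from 1.68 to 2578 FPKM over the 9 libraries, and *S100a8* is itself among the neutrophil markers.

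Over the 9 genes as a set, no comparison gave a call. For T1D against NGT, 0 of 9 were DEGs (adjusted p under 0.05 and fold change over 2), where 0.0% of all genes tested were. An unadjusted p under 0.05 in edgeR's test was reached by 0 of 9, where 3.95% did. In CPM, 0 of 9 had groups that did not overlap, where 8.6% did. For Lira against T1D these counts were again 0 of 9, with 3.33% of all genes at the unadjusted threshold and 7.13% without overlap in CPM. On the FPKM scale, T1D and Lira mice did not overlap for *Akr1b3*. For Lira against NGT the counts were 0 of 9, with 0.781% and 4.27%, and for all STZ-injected mice against NGT 0 of 9, with 1.8% and 0.817%. A log2 fold change above 0 was found for 4 of the 9 genes in T1D against NGT mice, where 52.1% of all genes tested had one, and for 5 of the 9 in Lira against T1D mice, where 55.3% had one, with median log2 fold changes of -0.01 and 0.02, close to the 0.02 and 0.04 of all genes tested. Leaving *Lgals3* and *Ager* aside, the largest absolute log2 fold change was 0.33 for T1D against NGT and 0.45 for Lira against T1D. The wide intervals of *Ager* and *Lgals3* do not show that they were alike in the groups.

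**Figure D5:**
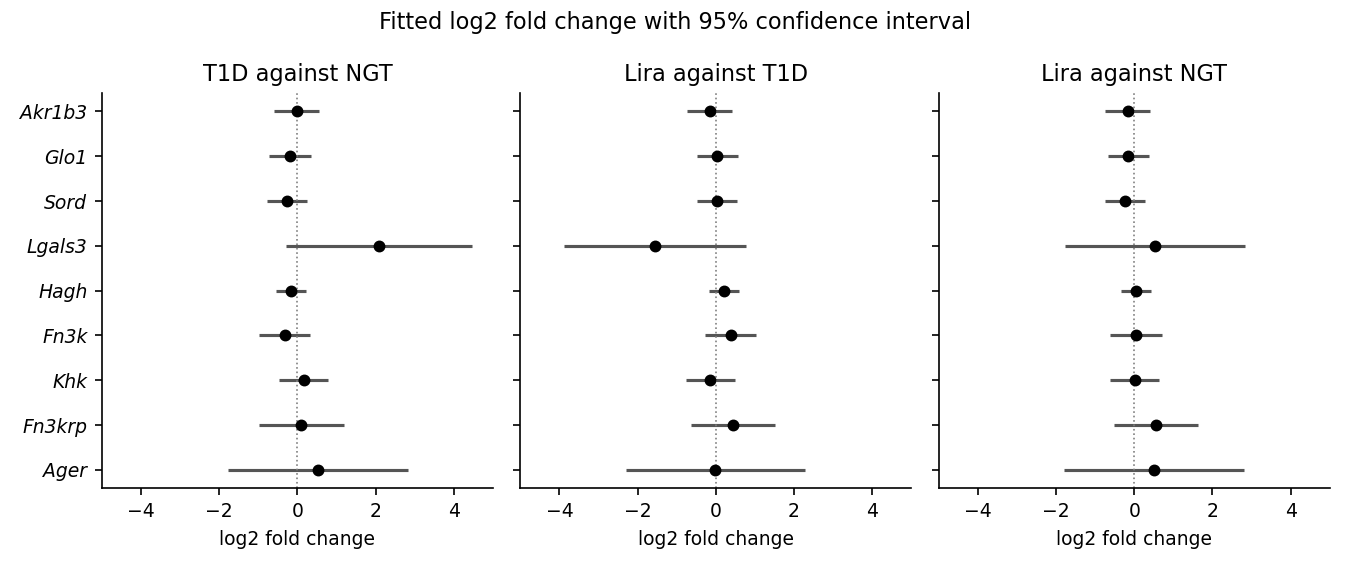
Fitted log2 fold change of each gene (points) with its 95% confidence interval (lines) for T1D against NGT, Lira against T1D and Lira against NGT, with a dotted line at 0. Every interval includes 0, those of the enzymes lie mostly within 1 on either side, and those of *Ager* and *Lgals3* are the widest.

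Libraries rather than groups set which values were extreme. T1D mouse 1 had the lowest CPM of the 9 libraries for 5 genes, *Sord*, *Khk*, *Glo1*, *Hagh* and *Fn3k*, and the highest for *Lgals3*. It also had the lowest muscle marker sum and the highest TMM factor, 1.25, and on the FPKM scale it was lowest for 2 genes, NGT mouse 2 for 3 and Lira mouse 1 for 4. Lira mouse 3 was the highest for 4 genes on both scales. The 3 libraries with the lowest muscle marker sums were Lira mouse 3, NGT mouse 1 and T1D mouse 1. In CPM they were also the 3 lowest for *Akr1b3* and for *Glo1*, but not for the other genes. The part of muscle in these levels was not tested.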

How the data were processed

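RNA-seq of 9 tibias (3 NGT, 3 T1D and 3 Lira mice) was analysed from the deposited table. RNA was enriched with oligo(dT), and clean reads were aligned to the mouse genome (mm9 in the submitters' processing notes); the aligner, counting tool and strand setting are not given in the sources used here. The table holds expected counts per gene, which the authors estimated from the alignments and left unscaled, of which 30.2% of values are not whole, and FPKM values, scaled by the authors for length and library total. Authors' group means were not used, and 0 sample columns lacked a sample. Gene numbers and symbols are those of the file, and promoters and neighbours came from RefSeq (GRCm38.p6), from which no other coordinates are given.

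Counts were rounded and fitted in R 4.3.3 with edgeR 4.0.16 (TMM, glmQLFit, glmQLFTest, 1 mean per group over all 9 libraries, a minimum of 10 counts in 3 or more libraries), with Benjamini-Hochberg adjustment over 13960 genes. Standard errors were derived from the F statistic. DEGs had an adjusted p under 0.05 and a fold change over 2. Single values were compared by two-sided exact permutation tests (SciPy 1.17.1), and a ratio is log2 of (CPM + 0.5) over (CPM + 0.5). Each library is 1 mouse. In simulated counts for T1D against NGT, with 200 of 13960 genes changed, 102 were recovered at 4-fold with 5 false calls and 177 at 16-fold with 4.

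Genes and lists were chosen with earlier results of these data known. Named were all 9 genes and, by mean FPKM, up to 4 leading genes per pathway list, and others are marked as named after their values were seen. Deviations from the group mean correlated between same-numbered NGT and T1D mice (r = 0.583, 0.647 and 0.283 across genes, which are not independent replicates) and were taken as pairs, T1D and Lira mice were not (r = -0.244, 0.615 and 0.271), nor NGT and Lira mice (r = -0.173, 0.727 and 0.0125). The labels do not state what a number stands for, so the pairs are an assumption drawn from these same data. The highest r of all, 0.78, was between NGT mouse 1 and Lira mouse 3, whose numbers differ. Alternatives were DESeq2 1.42.0, limma 3.58.1 on FPKM and with sample weights, library size scaling, other filters, the replicate block, fits of the compared groups and leaving out each mouse. Library size scaling moved the median log2 fold change of all genes by less than 0.1.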

Additional observations from a re-analysis of the deposited data

How the results depend on the processing

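Among the 9 genes, 688 recomputed log2 fold changes moved by less than 1 standard error and 14 by more, and 0 had an adjusted p under 0.05 in edgeR, DESeq2 or limma. The number at an unadjusted p under 0.05 for T1D against NGT was 0 in the reported fit and 1, *Lgals3*, with the replicate block, with the block and only the 2 groups compared (added after seeing the data), in DESeq2 and in limma-voom with sample weights, and ranged from 0 to 1 when each mouse was left out. For all STZ-injected mice against NGT it was also 1 with the replicate block, and from 0 to 1 over the mice left out. The block, used because same-numbered NGT and T1D mice correlated in these same data, changed no other call of these counts. No label states that numbers are pairs. DEGs over all genes numbered 0 in edgeR and 1 in DESeq2 for Lira against T1D. Log2 ratios of *Akr1b3* to *Sord* moved by less than 1 SD in 18 of 18 alternatives. The difference in *Khk* to *Sord* was between 0.25 and 0.39 with each mouse left out, where p was 0.0714 without 1 NGT mouse, the smallest that 6 against 2 allow in an exact permutation test. No alternative with only the groups compared exists for all STZ-injected mice against NGT, which uses all libraries. The share of all genes at that threshold was 3.95% in the reported fit for T1D against NGT, and 5.39%, 14.2%, 5.01% and 8.45% in these alternatives in turn. Over all genes tested the biological coefficient of variation between mice was 0.433. *Ager* had 2 to 55 counts per library, and the parts of depth and of spread in the width of its interval were not told apart. The causes of the moved values were not tested.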
